A study of Mus musculus with 12 samples.

Results

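Acute phase proteins are plasma proteins whose output by the liver changes within hours to days of infection, injury or tumor growth, and 10 mouse genes for such proteins are described here. They were Saa1, Saa2 and Saa3, which encode serum amyloid A proteins, Orm1, Orm2 and Orm3, which encode orosomucoids (alpha-1-acid glycoproteins), Lcn2 (lipocalin 2), Hp (haptoglobin), Hpx (hemopexin) and Crp (C-reactive protein). The genes were taken from a list of names and found in the count table through their Entrez identifiers, so all 10 were members by name. No measured value entered that rule, although the list was chosen with earlier results of these data known. The table held 27179 genes, of which 13947 had enough counts to be tested, and the 10 genes were among those tested. RNA had been sequenced in bulk from the livers of 12 mice in 4 groups of 3, with 1 library per mouse.

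Each group combined a diet, chow (CD) or low-protein (LPD), with an injection, empty vector (Vec) or the oncogene pair (c-MET/β-catenin). Per the methods of the study, the mice were males of about 8 weeks, were fed CD or LPD for 1 week and were then injected into the tail vein under hydrodynamic pressure with Vec or with plasmids for c-MET of human origin and for a β-catenin made constitutively active by loss of its N terminus, which Sleeping Beauty transposase inserts into the genome of hepatocytes. Diets went on until harvest, and all groups were harvested when the CD c-MET/β-catenin mice reached their end point, about 2 pm after 5 h of fasting. The strain is named in more than 1 way in the paper (C57/Bl3 in its methods, and a mixed background of 129/Ola and C57BL/6 in its results). Only a part of the hepatocytes takes up such plasmids, so each oncogene library mixes cells with and without the oncogenes, and the human c-MET transcript was not measured by alignment to the mouse genome. The labels name the cell type as hepatocyte, but the material was snap-frozen whole liver: markers of hepatocytes summed to between 69700 and 122000 CPM (counts scaled to a common library total) in every library, and markers of macrophages and Kupffer cells to between 129 and 462 CPM. In such tissue, fewer cells of a type and less RNA per cell cannot be told apart. Library totals lay between 19476209 and 31990267 counts. Axin2, a direct β-catenin target, was higher with the oncogenes on CD (log2 fold change 3.26, adjusted p = 9.61e-06) and on LPD (1.63, adjusted p = 0.00485). In c-MET/β-catenin livers Axin2 was lower on LPD than on CD (-1.20, adjusted p = 0.00366). The paper reports a smaller tumor burden on LPD at this harvest, and the part of tumor burden in the results below was not tested.

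In the liver, the acute phase response is driven mainly by interleukin-6 family cytokines, which signal through the shared receptor subunit gp130 and the transcription factor STAT3, and by interleukin-1, which acts through NF-κB and C/EBP factors. Serum amyloid A proteins bind lipoproteins, orosomucoids carry drugs and lipids and dampen immune responses, lipocalin 2 captures bacterial siderophores and so withholds iron, and haptoglobin and hemopexin bind free haemoglobin and heme. In the mouse, C-reactive protein responds weakly to inflammation, whereas Saa1 and Saa2 are the strong responders of hepatocytes and Saa3 is made chiefly by macrophages, adipocytes and epithelia. Neutrophils also make and store lipocalin 2 and haptoglobin.

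Promoter sequences show what these genes share upstream of their starts. RefSeq sequences of GRCm38.p6 were at hand for 8 of the 10 genes, without Orm1 and Hp, and the 250 bases before each start were searched on both strands for the letters TTNNGNAA (C/EBP), TTCNNNGAA (STAT) and ATCAAAG (TCF/LEF) and for the degenerate NF-κB consensus. The C/EBP letters occurred in all 8 windows, against 36.9% of the 27025 mouse promoters searched in the same way. The STAT, NF-κB and TCF/LEF motifs occurred in none of the 8, against 7.18%, 7.01% and 3.23% of all promoters, and this says only that these exact letters are not in these windows. Saa3 had the most C/EBP matches, 4, and Saa1, Orm2 and Hpx had 2 each. The single match of Lcn2 read TTGCTCAA and lay 216 to 209 bases before its RefSeq start, in a window of which GENCODE places 197 of 250 bases in Lcn2 exons. Aligned over their whole length, the windows of Saa1 and Saa2 were identical at 94.8% of positions, those of Orm2 and Orm3 at 85.9%, and those of Saa1 and Saa3 at 50.2%, a value near the 49.1% of an unrelated pair, Lcn2 and Hpx. Both Saa1 and Saa2 held TTGCACAA in the upstream part of the window, and Saa1 also held TTTCCCAA 86 to 79 bases before its start. The windows of Saa3, Orm2 and Hpx are printed because each gene stands for another pattern of change below, with the C/EBP letters in capitals and the strand of the gene read 5′ to 3′ (Saa3 at chr7:46715677-46715926, minus strand, Orm2 at chr4:63362199-63362448, plus strand, and Hpx at chr7:105600117-105600366, minus strand).
Saa3: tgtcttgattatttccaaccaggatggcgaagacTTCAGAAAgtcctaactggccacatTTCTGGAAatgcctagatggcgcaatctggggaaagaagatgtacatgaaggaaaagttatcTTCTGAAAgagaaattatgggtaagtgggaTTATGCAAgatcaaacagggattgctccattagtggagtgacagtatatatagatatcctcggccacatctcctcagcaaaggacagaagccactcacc
Orm2: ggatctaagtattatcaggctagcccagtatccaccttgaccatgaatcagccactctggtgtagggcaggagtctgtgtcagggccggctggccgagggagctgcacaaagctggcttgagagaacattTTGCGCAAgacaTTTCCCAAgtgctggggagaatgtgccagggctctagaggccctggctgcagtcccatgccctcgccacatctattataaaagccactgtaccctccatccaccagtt
Hpx: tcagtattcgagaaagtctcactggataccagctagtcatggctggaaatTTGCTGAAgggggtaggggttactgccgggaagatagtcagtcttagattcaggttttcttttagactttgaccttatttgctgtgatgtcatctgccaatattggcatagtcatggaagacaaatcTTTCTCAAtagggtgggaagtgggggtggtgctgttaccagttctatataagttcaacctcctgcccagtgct

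Expressed per kilobase of the principal transcript, so that genes can be set side by side, the 10 genes spanned a wide range. In CD Vec livers, Hp (2260 ± 993 CPM per kilobase, SD, n = 3) and Hpx (2180 ± 211) stood above the other members. Orm1 followed with 657 ± 150 and Crp with 185 ± 51.7. Saa1 (108 ± 86.2), Saa2 (36.3 ± 22), Orm2 (31.8 ± 13.1), Lcn2 (12.3 ± 8.36), Saa3 (7.27 ± 3.09) and Orm3 (5.79 ± 2.53) made up the lower end. In this order the libraries of Hp and Hpx overlapped, as did those of Crp and Saa1, Saa1 and Saa2, Saa2 and Orm2, Lcn2 and Saa3, and Saa3 and Orm3, so the ranges of these neighbors did not separate, although Crp was above Saa1 and Saa1 above Saa2 within every CD Vec library, whereas Orm1 stood clear of Hpx and Crp, and Orm2 of Lcn2. In CD c-MET/β-catenin livers the mean of Lcn2 was 491 ± 389 CPM per kilobase, between those of Hpx (3230 ± 620) and Orm1 (281 ± 148). Together the 10 genes took 6170 to 9440 CPM in CD Vec, 8740 to 13600 in CD c-MET/β-catenin, 5550 to 6500 in LPD Vec and 5520 to 6660 in LPD c-MET/β-catenin, sums that are mostly Hp and Hpx.

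**Figure D1:**
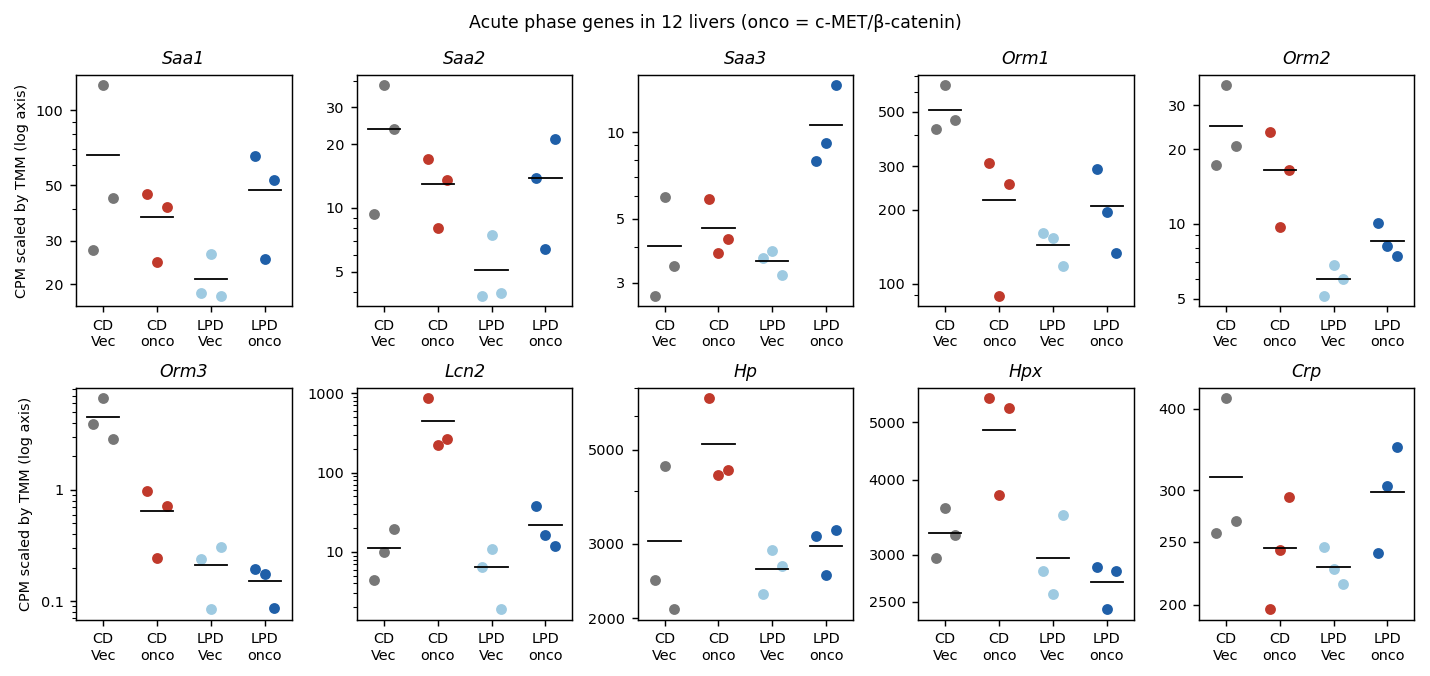
Levels of the 10 acute phase genes in the 12 livers, in CPM scaled by TMM factors on a log axis. Each point is 1 library and each line the mean of the 3 libraries of a group, and the 3 CD c-MET/β-catenin libraries lie at 222 to 859 CPM for Lcn2, above the 9 other libraries.

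The first comparison asked what the oncogenes did to these genes on CD. Lcn2, Hp and Hpx were higher and Orm1 and Orm3 were lower in CD c-MET/β-catenin than in CD Vec livers, so 5 of 10 members were called (edgeR quasi-likelihood test, adjusted p under 0.05), against 35.4% of all genes tested (18.7% higher and 16.7% lower). Saa1, Saa2, Saa3, Orm2 and Crp did not pass the test. The median log2 fold change of the members was -0.47, beside -0.01 over all genes, and the values ran from -2.75 to 5.31. In 4 of 10 members the libraries of the groups did not overlap, against 42.6% of all genes.

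Lcn2 (chromosome 2, 32384637 to 32387739, minus strand) had the largest change of the 10. It stood at 4.48, 9.83 and 19.6 CPM in CD Vec and at 859, 222 and 266 CPM in CD c-MET/β-catenin. Every CD c-MET/β-catenin liver was above any Vec liver on either diet, although these livers themselves differed widely (449 ± 356 CPM, SD, n = 3). The fitted log2 fold change was 5.31 (95% interval 3.45 to 7.18, SE 0.85, adjusted p = 0.000767), or 39.8-fold, and it stayed called when any 1 of the 12 libraries was left out, with values from 4.43 to 5.98. Replicates 1 and 2 of CD c-MET/β-catenin carry dataset numbers in the header of the count table that form a run of their own, and with a term for such runs the value was 4.18 (adjusted p = 0.0504). Among the 7 libraries of the middle run, with 1 library of each CD group, it was 3.75 (adjusted p = 0.221), and the libraries compared there stood at 19.6 and 266 CPM and were taken to vary like those of the LPD groups.

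Some markers of other cells moved with Lcn2. Of 12 neutrophil markers, 5 could be tested, and S100a8, S100a9, Elane and Ngp were higher in CD c-MET/β-catenin than in CD Vec while none was lower. Elane (24 to 27 counts there, at most 3 in any other library) and Ngp (34 to 49 counts, at most 3) entered the test only through CD c-MET/β-catenin, so their calls add no support. In CD c-MET/β-catenin livers the 12 summed markers reached 13.4 to 21.7 CPM, against 3.75 to 5.67 CPM in CD Vec, 3.26 to 5.83 CPM in LPD Vec and 3.44 to 6.51 CPM in LPD c-MET/β-catenin, and Ly6g, a defining surface marker, was at 0 in 11 of the 12 libraries. All 6 monocyte markers were higher on CD (28.3 to 40.7 CPM summed, against 6.14 to 10.8 CPM in CD Vec), of which Chil3 (at most 6 counts in any other library) likewise entered only through CD c-MET/β-catenin. Of 7 cholangiocyte markers, 6 were tested and Krt19 and Spp1 were higher, beside 18.7% of all genes higher and 35.4% called in either direction on CD. Their sums of 141 to 403 CPM against 47.7 to 65.6 CPM were mostly Spp1 (253 against 34.7 CPM on average), while Sox9 (4.0 against 5.35 CPM) and Epcam (0.945 against 1.37 CPM) did not pass the test. Library 1 of CD c-MET/β-catenin had the highest Lcn2 and also the highest sums for the neutrophil, monocyte and cholangiocyte lists. All 10 macrophage and Kupffer cell markers were tested. On CD, Cd68, C1qa, C1qb and C1qc were higher and none was lower, beside 18.7% and 16.7% of all genes. In CD c-MET/β-catenin the Lcn2 transcript alone exceeded the summed neutrophil markers in every library. Such a sum does not show how much Lcn2 RNA neutrophils hold. The part of the listed cell types in the Lcn2 result was not tested.

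**Figure D2:**
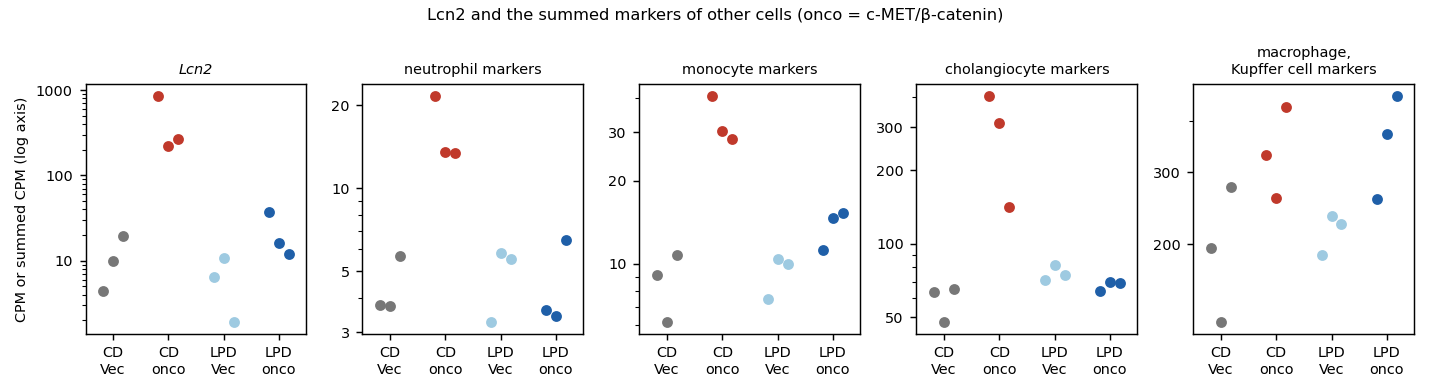
Lcn2 and the summed markers of 4 other cell types in each library, in CPM on log axes, with 1 point per liver and onco standing for c-MET/β-catenin. Lcn2 and the sums of neutrophil, monocyte and cholangiocyte markers, the last mostly Spp1, were each highest in the CD c-MET/β-catenin livers, where neutrophil markers summed to 13.4 to 21.7 CPM.

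Hpx (chromosome 7, 105591611 to 105600116, minus strand) and Hp (chromosome 8, 109575128 to 109579172, minus strand) rose by smaller factors from high levels. Hpx stood at 2960, 3590 and 3230 CPM in CD Vec and at 5480, 3780 and 5280 CPM in CD c-MET/β-catenin, with no overlap. The fitted log2 value was 0.57 (SE 0.18, adjusted p = 0.0279). Hp stood at 2460, 4570 and 2100 CPM in CD Vec and at 6610, 4360 and 4480 CPM in CD c-MET/β-catenin. The groups overlapped for Hp, since CD Vec replicate 2 lay above 2 of the oncogene livers. For Hp the log2 fold change was 0.76 (SE 0.28, adjusted p = 0.0490), and the call was lost in 11 of 12 fits that left out a library, where it ranged from 0.54 to 1.17. The Hpx call was lost in 4 of those 12 fits, without CD Vec replicates 1 or 3 or without CD c-MET/β-catenin replicates 1 or 3. With the term for runs, Hpx was at 0.66 (adjusted p = 0.233) and Hp at 0.73 (adjusted p = 0.410), whereas within the middle run, with 1 liver against 1 and without CD Vec replicate 2, Hp was at 1.08 (adjusted p = 0.0393) and Hpx at 0.69 (adjusted p = 0.163).

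The orosomucoid genes went the other way. Orm1, the most abundant of the 3, stood at 424, 641 and 462 CPM in CD Vec and at 309, 89.2 and 255 CPM in CD c-MET/β-catenin, without overlap. The level was 2.34-fold lower (log2 fold change -1.22, SE 0.40, adjusted p = 0.0322). The call was lost in 3 of 12 fits, without CD Vec replicate 2, CD Vec replicate 3 or CD c-MET/β-catenin replicate 2, and with scaling by total counts only (-0.94, adjusted p = 0.0717). Orm3 stood at 3.92, 6.65 and 2.86 CPM in CD Vec and at 0.981, 0.245 and 0.711 CPM in CD c-MET/β-catenin. It was 6.74-fold lower (log2 fold change -2.75, SE 0.49, adjusted p = 0.00116) and stayed called in all 12 fits without 1 library. It entered the test only through its counts in CD Vec (77, 117 and 55), the group where it was high. Orm2 had a log2 fold change of -0.57 (95% interval -1.27 to 0.12, adjusted p = 0.182) and its groups overlapped. With the term for runs, Orm1 was at -0.84 (adjusted p = 0.540) and Orm3 at -2.11 (adjusted p = 0.169).

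These 3 genes are neighbors on chromosome 4 and share sequence. Orm1 lies at 63344556 to 63348163, Orm3 at 63356069 to 63359506 and Orm2 at 63362449 to 63365877 (RefSeq, GRCm38.p6, plus strand). Of the 50-base windows of the longest GENCODE transcript, 20.4% of Orm1, 21.8% of Orm2 and 3.59% of Orm3 occurred letter for letter in another member of the family, and the handling of such reads in the counting is not stated, so the split between the copies is uncertain. Summed over the 3 genes before the fit, the log2 fold change on CD was -1.20 (SE 0.39, adjusted p = 0.0325). Orm1 also shares bases with an annotated noncoding gene, Gm52743, at its 5′ end.

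The serum amyloid A genes and Crp did not pass the test on CD. Saa1 stood at 27.6, 126 and 44.4 CPM in CD Vec and at 46, 24.5 and 41 CPM in CD c-MET/β-catenin, with a log2 fold change of -0.82 (95% interval -1.93 to 0.28, adjusted p = 0.228). The mean of CD Vec rests on replicate 2 at 126 CPM, and without that library the value was 0.038. Saa2 was at 9.37, 38.1 and 23.6 CPM and at 17.1, 8.03 and 13.6 CPM, with a log2 fold change of -0.87 (95% interval -2.02 to 0.28, adjusted p = 0.221). Both intervals hold no change, a small rise and a fall of more than 2-fold. Saa3 had 0.21 (95% interval -0.48 to 0.90) and Crp (chromosome 1, 172698056 to 172699966, plus strand) -0.36 (95% interval -0.82 to 0.10). Saa1 (chromosome 7, 46740497 to 46743181, minus strand) and Saa2 (46751833 to 46754313, plus strand) also share sequence. Of the Saa1 windows 14.8% recurred in Saa2 or Saa3 transcripts, and of the Saa2 windows 8.46% recurred in Saa1. No window of the longest Saa3 transcript recurred in another member. The sum of Saa1 and Saa2 had a log2 fold change of -0.84 (adjusted p = 0.214).

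**Figure D3:**
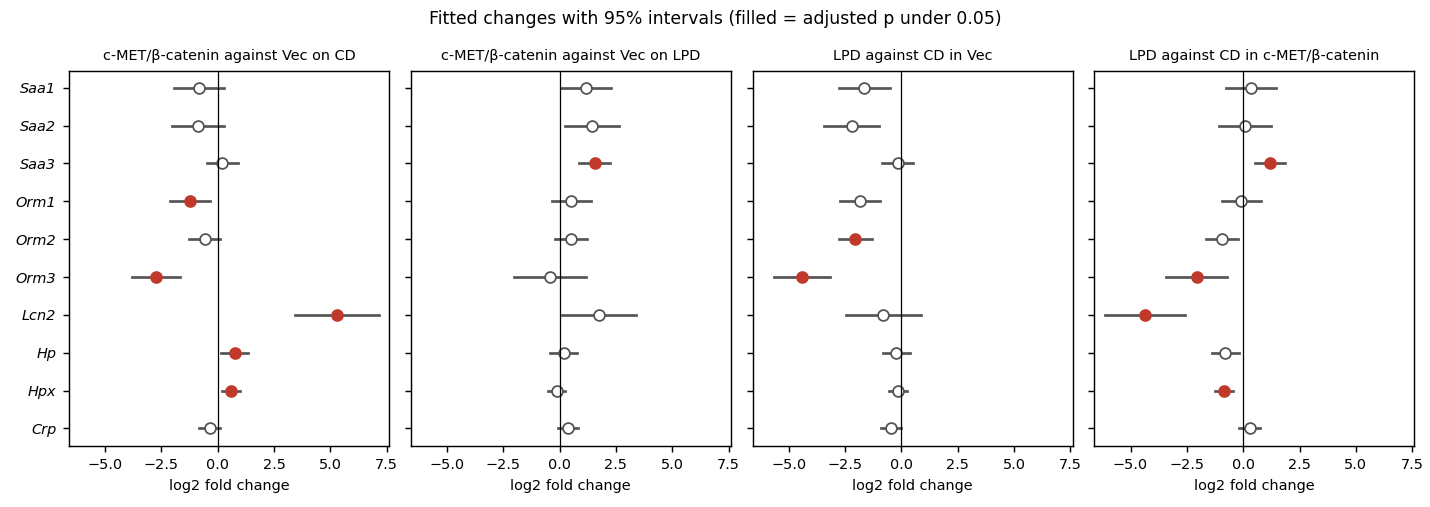
Log2 fold changes of the 10 genes in the 4 comparisons, fitted with edgeR, with 95% intervals. Filled points have an adjusted p under 0.05. Lcn2 is at 5.31 with the oncogenes on CD and at -4.36 for LPD against CD in c-MET/β-catenin livers, and all 10 points lie below 0 for LPD against CD in Vec.

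On LPD the same oncogenes were compared with Vec. Saa3 was the only member called, higher with the oncogenes, against 1.32% of all genes tested (1.15% called higher). It stood at 3.65, 3.88 and 3.18 CPM in LPD Vec and at 7.96, 9.15 and 14.6 CPM in LPD c-MET/β-catenin. Each oncogene liver on LPD was above the 9 livers of the other groups, which lay between 2.7 and 5.97 CPM. The log2 fold change was 1.56 (SE 0.32, adjusted p = 0.0350), or 2.96-fold, and the call was lost in 5 of 12 fits without 1 library (without any of the LPD Vec replicates, or without LPD c-MET/β-catenin replicates 2 or 3), where the value ranged from 1.26 to 1.73. With the term for runs it was 1.62 (adjusted p = 0.102) and within the middle run 1.57 (adjusted p = 0.0572), so the size held and the call did not. Saa3 lies on chromosome 7 at 46711998 to 46719615 (minus strand), and its annotated span overlaps the noncoding gene Gm31882 upstream of the start used above.

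Macrophage markers stood beside Saa3 in these livers. The 10 macrophage and Kupffer cell markers summed to 258 to 462 CPM in LPD c-MET/β-catenin and to 189 to 235 CPM in LPD Vec, without overlap, yet none of the 10 was called on LPD. All 10 had positive log2 fold changes there, with a median of 0.78. In CD c-MET/β-catenin livers the same markers summed to 260 to 433 CPM, which overlaps the LPD c-MET/β-catenin range, while Saa3 was at 5.86, 3.79 and 4.27 CPM. The part of macrophages in the Saa3 result was not tested. Adipocyte markers, of which 3 of 6 were tested, summed to 7.08 to 12.6 CPM in LPD c-MET/β-catenin and 6.67 to 9.25 CPM in LPD Vec, and none was called on LPD.

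The other 9 members did not pass the test with the oncogenes on LPD. The median log2 fold change of the 10 was 0.52, beside 0.01 over all genes, and 8 of 10 values were positive. The libraries did not overlap in 3 of 10 members, against 25.2% of all genes. Lcn2 stood at 6.48, 10.9 and 1.9 CPM in LPD Vec and at 37.4, 16.3 and 11.9 CPM in LPD c-MET/β-catenin. This gave a log2 fold change of 1.75 (95% interval 0.10 to 3.40, adjusted p = 0.413). Saa1 had 1.18 (95% interval 0.05 to 2.30, adjusted p = 0.425) and Saa2 1.43 (95% interval 0.23 to 2.63, adjusted p = 0.327). Orm1 (0.52), Orm2 (0.51), Crp (0.38) and Hp (0.18) were small and positive, and Hpx (-0.13) and Orm3 (-0.42) were below 0.

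LPD was then compared with CD in Vec livers, that is, without the oncogenes. All 10 members had negative log2 fold changes, with a median of -1.22 beside -0.03 over all genes, and Orm2 and Orm3 were called lower. That is 2 of 10 members, against 0.308% of all genes called in either direction and 0.122% called lower. CD Vec replicate 2 was the highest of its group for 9 of 10 members, and without it the median was -0.84, Saa3 (0.21) and Hp (0.19) turned positive and Orm3 alone was called. In 6 of 10 members (Saa1, Saa2, Orm1, Orm2, Orm3 and Crp) every LPD Vec liver was below every CD Vec liver, against 9.02% of all genes. The CD Vec libraries are shared with the comparison on CD above, so the results of both comparisons are not independent.

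Of the orosomucoids, Orm2 and Orm3 fell. Orm2 went from 17.2, 36.2 and 20.6 CPM in CD Vec to 5.13, 6.84 and 6 CPM in LPD Vec. It was 4.11-fold lower (log2 fold change -2.04, SE 0.34, adjusted p = 0.0301). Orm3 went from 3.92, 6.65 and 2.86 CPM to 0.24, 0.0845 and 0.308 CPM, the latter being 5, 2 and 6 counts. The fitted change was -4.41 on the log2 scale (SE 0.58, adjusted p = 0.0136), and it owed its place in the test to CD Vec, as above. Orm1 went from 424, 641 and 462 CPM to 160, 153 and 118 CPM, 3.54-fold lower, with an adjusted p of 0.0819 (log2 fold change -1.82, SE 0.41). The family sum gave -1.84 (adjusted p = 0.0768). So the 3 genes shared a direction, while the call depended on the gene and on how copies were counted. The Orm2 call was lost in 6 of 12 fits without 1 library (without CD Vec replicates 2 or 3, any LPD Vec replicate, or LPD c-MET/β-catenin replicate 3), and the Orm3 call in 2 (without LPD Vec replicates 2 or 3). With the term for runs Orm3 was at -4.14 (adjusted p = 0.0436) and Orm2 at -2.02 (adjusted p = 0.106), and within the middle run Orm2 was at -1.69 (adjusted p = 0.0190).

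Saa1 and Saa2 did not pass the test, with a wide spread on CD. Saa1 stood at 18.5, 26.6 and 18 CPM in LPD Vec, below the 27.6, 126 and 44.4 CPM of CD Vec, with a fitted change of -1.64 on the log2 scale (95% interval -2.78 to -0.51, adjusted p = 0.246). Saa2 stood at 3.84, 7.47 and 3.95 CPM, with -2.21 (95% interval -3.43 to -0.99, adjusted p = 0.119). Without CD Vec replicate 2 the value for Saa1 was -0.78 (adjusted p = 0.568). DESeq2 called both, together with Orm1, Orm2 and Orm3, against 2.43% of the genes to which it gave an adjusted p. Crp stood at 245, 227 and 215 CPM in LPD Vec against 258, 415 and 269 CPM in CD Vec (log2 fold change -0.46, adjusted p = 0.509). For Hp (-0.22), Hpx (-0.14), Saa3 (-0.17) and Lcn2 (-0.80) the groups overlapped.

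In c-MET/β-catenin livers the diets were compared last. Lcn2, Hpx and Orm3 were lower and Saa3 was higher on LPD, so 4 of 10 members were called, against 20.0% of all genes (8.66% higher and 11.3% lower). The libraries of the groups did not overlap in 5 of 10 members, against 39.2% of all genes. The median log2 fold change of the members was -0.44, beside -0.01 over all genes. Lcn2 went from 859, 222 and 266 CPM on CD to 37.4, 16.3 and 11.9 CPM on LPD, without overlap. It was 20.6-fold lower (log2 fold change -4.36, 95% interval -6.14 to -2.59, SE 0.81, adjusted p = 0.00446) and stayed called in all 12 fits without 1 library, with values from -4.98 to -3.48. In these livers S100a8, S100a9, Elane and Ngp were also lower on LPD, 4 of 5 tested neutrophil markers. So were 5 of 6 monocyte markers and 2 of 6 tested cholangiocyte markers, Krt19 and Spp1. Elane, Ngp and Chil3 entered the test only through CD c-MET/β-catenin, where they were high, so their calls add no support. Without CD c-MET/β-catenin replicate 1, the monocyte markers Ccr2, Itgam and Fcgr1 were not called. The part of these cell types in the Lcn2 result was not tested.

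Hpx went from 5480, 3780 and 5280 CPM on CD to 2860, 2430 and 2820 CPM on LPD, without overlap. The fitted log2 value was -0.84 (SE 0.18, adjusted p = 0.00795) and stayed called in all 12 fits without 1 library. Hp, its partner in clearing haemoglobin and heme, went from 6610, 4360 and 4480 CPM to 3130, 2530 and 3230 CPM, likewise without overlap, with -0.80 (SE 0.28, adjusted p = 0.0611). Scaling by total counts only (-0.87, adjusted p = 0.0357) and DESeq2 (-0.81, adjusted p = 0.0221) called Hp. Orm3 was lower (log2 fold change -2.07, SE 0.62, adjusted p = 0.0347), from 34, 6 and 19 counts to 4, 5 and 2 counts, and lost the call in 5 of 12 fits (without CD c-MET/β-catenin replicates 1 or 3 or any LPD c-MET/β-catenin replicate). The family sum was at -0.12 here (adjusted p = 0.855). Orm2 stood at 23.4, 9.74 and 16.4 CPM on CD and at 10.1, 8.14 and 7.43 CPM on LPD (-0.95, SE 0.32, adjusted p = 0.0578).

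Saa3 was the member called higher on LPD. It rose from 5.86, 3.79 and 4.27 CPM on CD to 7.96, 9.15 and 14.6 CPM on LPD (log2 fold change 1.18, SE 0.31, adjusted p = 0.0195). The call was lost in 3 of 12 fits, without CD c-MET/β-catenin replicates 2 or 3 or LPD c-MET/β-catenin replicate 3. In the same comparison 1 of the 10 macrophage and Kupffer cell markers was called, Cd68, which was lower on LPD, and the median of the 10 was -0.05. Without CD c-MET/β-catenin replicate 1, Cd68 was not called (-0.73, adjusted p = 0.0705). Saa1 (0.36), Saa2 (0.09), Orm1 (-0.08) and Crp (0.28) had small values and overlapping groups, with adjusted p of 0.379 or more. With the term for runs none of the 4 calls held, with adjusted p of 0.0609 for Lcn2 (-3.61), 0.0670 for Hpx (-0.96), 0.190 for Saa3 (1.31) and 0.171 for Orm3 (-2.18). Within the middle run Hpx was called (-0.96, adjusted p = 0.0315).

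The injection by diet interaction asks whether the oncogenes moved a gene differently on LPD than on CD. It is the log2 fold change on LPD minus that on CD, and these comparisons share no library. No member was called by edgeR, against 8.91% of all genes, although 9 of 10 had an unadjusted p under 0.05, against 25.8% of all genes, and DESeq2 called 6 (Saa1, Saa2, Saa3, Orm1, Lcn2 and Hpx), against 13.8% of the genes to which it gave an adjusted p. Saa1, Saa2, Orm1, Orm2 and Crp had values below 0 on CD and above 0 on LPD. Saa2 had the interaction 2.30 (95% interval 0.64 to 3.96, adjusted p = 0.0816), Saa1 2.0 (95% interval 0.42 to 3.58, adjusted p = 0.106) and Orm1 1.75 (95% interval 0.52 to 2.97, adjusted p = 0.0747). Lcn2 had -3.56 (95% interval -5.88 to -1.25, adjusted p = 0.0595), an 11.8-fold smaller ratio on LPD, Hpx -0.70 (adjusted p = 0.106) and Hp -0.58 (adjusted p = 0.379). Saa3 had 1.36 (95% interval 0.38 to 2.33, adjusted p = 0.0799). Without CD Vec replicate 2 the interaction of Saa1 was 1.14, and over the fits without 1 library that of Lcn2 ran from -4.23 to -2.69, the latter without CD c-MET/β-catenin replicate 1. Within the middle run Lcn2 was at -2.02 (adjusted p = 0.605). So in the fit to all libraries the intervals of 9 members lay on 1 side of 0, while the adjustment over all genes left each above the threshold.

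**Figure D4:**
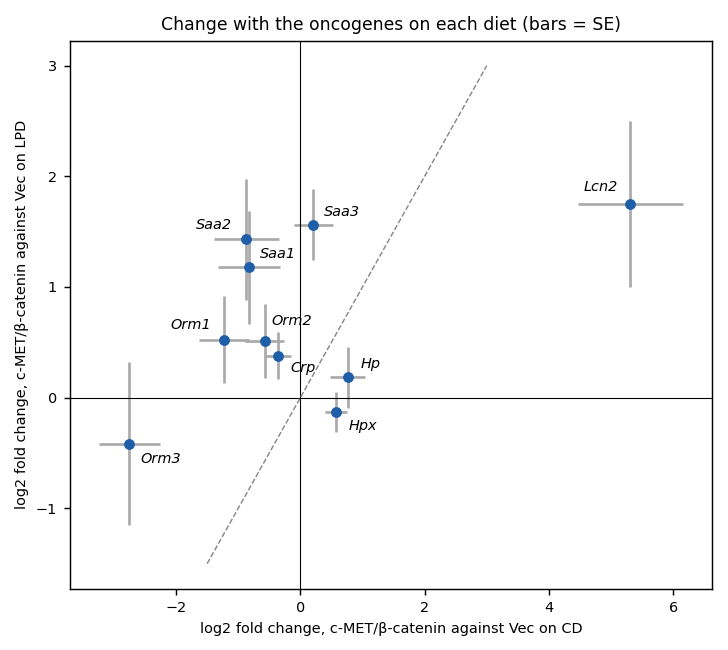
Log2 fold change of each gene with the oncogenes on CD (horizontal axis) and on LPD (vertical axis), with bars of 1 SE and a dashed line where both are equal. Lcn2, Hp and Hpx lie below the line and the 7 other genes above it, with Saa1, Saa2, Orm1, Orm2 and Crp to the left of 0 and above 0.

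The members were often high or low in the same livers. CD Vec replicate 2 was above its group mean for all 10 members and highest of the 3 for 9 of them, while it was highest for 39.7% of all genes tested. CD c-MET/β-catenin replicate 1 was also highest of its group for 9 of 10 members (37.2% of all genes), and replicate 2 was lowest for 9 of 10 (28.3% of all genes). CD Vec replicate 1 was below its group mean for all 10. After the group means were taken out, the Pearson correlations of log2 CPM between pairs of members over the 12 libraries had a median of 0.49 over 45 pairs. They ran from -0.30 for Lcn2 with Crp to 0.90 for Saa1 with Saa2, and 21 pairs exceeded 0.5. The pairs share their libraries and the scaling, and Saa1 and Saa2 also have sequence in common.

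**Figure D5:**
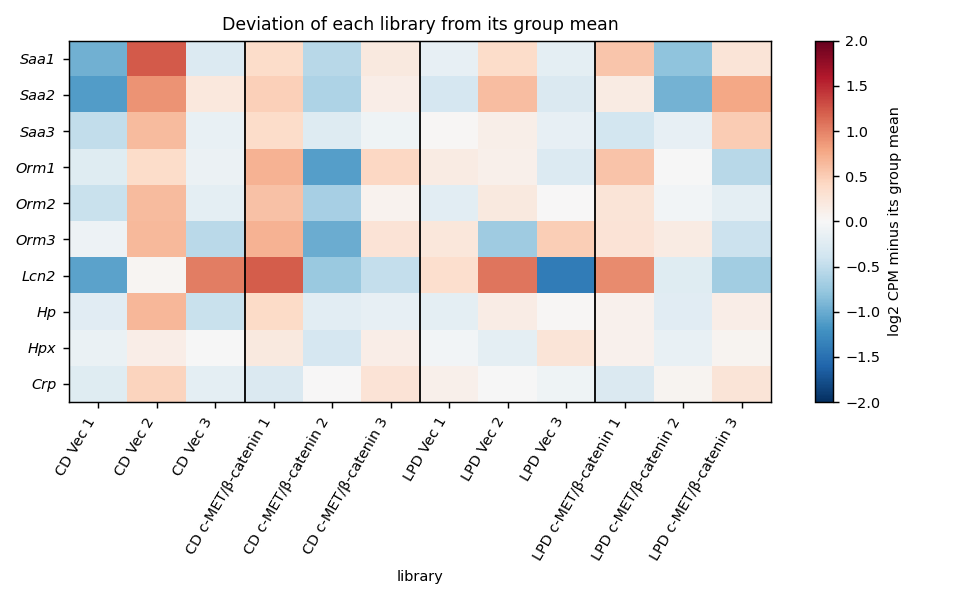
Log2 CPM of each gene minus the mean of its group, for the 12 libraries, with red above and blue below the group mean and lines between groups. CD Vec 2 is above its group mean in all 10 rows and CD Vec 1 below it in all 10.

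Among the regulators of these genes, many ligands were too scarce to test, and members of each list below were called on CD, where 35.4% of all genes were. Il6 was not tested, with at most 1 count in any library, and Il1b stood at 8 to 51 counts per library and was called in none of the 5 comparisons. Of 9 ligands, 4 were tested. Lif, which signals through gp130, was the only 1 called higher on CD (5.02 on the log2 scale, SE 0.66, adjusted p = 0.000197, 0.07 ± 0.08 CPM in CD Vec and 2.47 ± 1.06 CPM in CD c-MET/β-catenin), and in c-MET/β-catenin livers it was lower on LPD (-3.13, adjusted p = 0.00228). Lif had 34 to 100 counts in CD c-MET/β-catenin and at most 8 in any other library, so it entered the test only through the group where it was high. Of 9 receptor genes, 3 were higher and 1 lower on CD. Il22ra1 (2.31), Osmr (2.0) and Tnfrsf1a (0.72) rose, and Il1rap, the co-receptor of interleukin-1, fell by 1.83 on the log2 scale (adjusted p = 2.07e-05). Il6ra (0.30, adjusted p = 0.628) and Il6st, which encodes gp130 (-0.21, adjusted p = 0.331), did not pass the test.

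Of 13 transducers and transcription factors, 5 were higher, 1 was lower and 7 did not pass the test on CD. Stat3 was at 0.81 on the log2 scale (SE 0.27, adjusted p = 0.0368), Cebpd 1.23 (SE 0.45, adjusted p = 0.0494) and Nfkbiz, an NF-κB cofactor, 0.99 (SE 0.33, adjusted p = 0.0357). Nfkb1 (0.42) and Nfkb2 (1.18) were also higher, Cebpa was lower (-1.16), and Cebpb did not pass the test (0.05, adjusted p = 0.868). When replicate 1 of CD c-MET/β-catenin was left out, Stat3 (0.29, adjusted p = 0.127), Cebpd (0.45, adjusted p = 0.318) and Nfkbiz (0.43, adjusted p = 0.192) were not called. Without that library Osmr stayed called at 1.39 (adjusted p = 0.0139). Socs3, the STAT3-induced inhibitor of gp130 signaling, was higher on CD (1.67, SE 0.35, adjusted p = 0.00325) and in c-MET/β-catenin livers lower on LPD (-1.30, SE 0.34, adjusted p = 0.0200), the latter not called without that library (-1.15, adjusted p = 0.0619). Its mean was 5.75 ± 2.61 CPM in CD Vec and 18.3 ± 6.63 CPM in CD c-MET/β-catenin, and it stood at 7.42 ± 1.02 CPM in LPD c-MET/β-catenin. Of 7 feedback inhibitors, Socs3 and Tnfaip3 were higher and none was lower on CD. On LPD none of these ligands, receptors, factors and inhibitors was called with the oncogenes, and none was called between the diets in Vec livers.

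Other acute phase genes were taken from lists of names. Of 22 further genes for proteins that rise in an acute phase, 10 were higher and 2 lower on CD, beside 18.7% of all genes higher and 16.7% lower, with a median log2 fold change of 0.35. Mt2 (5.55) and Mt1 (4.47), which encode metallothioneins, had the largest rises, Il1rn (2.20) and Fgl1 (2.01) followed, and Hamp (-3.79), which encodes the iron hormone hepcidin, and Saa4 (-1.30) fell. Mt1 and Mt2 in CD c-MET/β-catenin rest largely on replicate 1 (71199 counts of Mt1, against 2109 and 1631 in the others), and without it Mt1 (1.15, adjusted p = 0.315), Mt2 (1.76, adjusted p = 0.233), Itih3 and Lbp were not called on CD. None of the 22 was called with the oncogenes on LPD or between diets in Vec livers, and in c-MET/β-catenin livers 2 were higher and 7 lower on LPD, beside 8.66% and 11.3% of all genes, and without that library Saa4, Apcs, Mt1, Mt2 and Steap4 lost that call. Of 9 genes for proteins that fall in an acute phase, Trf (0.75) and Ahsg (0.75) were higher and Serpinc1 (-0.83) was lower on CD, and Alb did not pass the test (-0.20, adjusted p = 0.495).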

How the data were processed

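RNA from 12 livers was sequenced, per the methods with 50-base single reads, although they also name a paired-end module. Shares of common sequence use windows of 50 bases. The deposited table holds read counts per gene as the authors made them, with HISAT2 against mm10 and featureCounts under Entrez identifiers. Neither the versions of these tools nor how the counting treated strand and reads with several matches is given in the sources used here. The labels name ribosomal RNA depletion and the methods a stranded mRNA kit. Groups follow the labels, although the titles call Vec WT and the columns of the chow samples read HPD, which in the study's methods is a high-protein diet, so that the CD groups rest on the labels alone.

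Genes were matched to symbols through RefSeq (GRCm38.p6). All 12 libraries entered 1 fit in R 4.3.3 with edgeR 4.0.16 (TMM, filterByExpr, robust quasi-likelihood test, 1 coefficient per group, no covariate), and p-values were adjusted by Benjamini-Hochberg over 13947 genes. The SE of a log2 fold change is its size divided by the root of its F statistic. CPM were scaled by TMM factors (0.864 to 1.12). On simulated data for the comparison on CD, 86.2% of 4-fold changes were called among 13743 genes. Replicate numbers did not pair the samples. The members and lists were chosen with earlier results of these data known. All members and a fixed set of regulators were named, and from other lists up to 4 called genes with the largest change and a mean of at least 1 CPM in a comparison, with the list's counts. For Saa1, Lcn2 and Hp the 5 other genes with the highest correlation were also named, among those with a mean of at least 5 CPM and a full symbol. Some genes that these rules name are not reported here. The header of the table gives each library a dataset number that no source explains, and these fall into 3 runs. DESeq2 1.42.0, other scalings, no filter, fits to 2 groups, each library left out, a replicate block, a term for runs of dataset numbers, only the middle run (added after seeing the data) and summed copies were tried. P-values set a difference between groups against the spread between livers within groups, estimated over all groups fitted and with information shared across genes. Orm3 had the fewest counts, 2 to 117 per library, and Lcn2 the largest SE.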

Additional observations from a re-analysis of the deposited data

How the results depend on the processing

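Of the results on the 10 genes, 923 kept their direction and side of the threshold under an alternative, 73 lost and 27 gained a call, and 15 reversed. On CD, 5 members were called, against 2 in a fit to the groups compared alone, 0 with the term for runs, 1 (Hp) within the middle run and 2 to 4 over the fits without 1 library. With the oncogenes on LPD, the 1 call became 0 with the term for runs, 0 within the middle run and 0 to 1 without 1 library. For LPD against CD in Vec, 2 calls became 5 with DESeq2, 0 in a fit to the groups compared alone, 1 with the term for runs, 1 (Orm2) within the middle run, 0 with copies summed and 0 to 3 without 1 library. In c-MET/β-catenin livers, 4 calls became 0 with the term for runs, 2 (Orm2, Hpx) within the middle run and 2 to 6 without 1 library. For the interaction, 0 became 2 (Lcn2, Hpx) with total counts only, 6 with DESeq2 and 0 to 2 without 1 library. The cause of these shifts was not tested. The median correlation of 0.49 between members within groups ranged from 0.42 to 0.56 without 1 library.

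Over all alternatives the adjusted p of the called members ranged from 2.52e-09 to 0.221 for Lcn2 on CD (19 of 21 called), from 3.37e-06 to 0.122 for Lcn2 between diets in c-MET/β-catenin livers (19 of 21), from 4.28e-05 to 0.067 for Hpx there (20 of 21), from 0.000258 to 0.169 for Saa3 on LPD (13 of 21), from 0.00259 to 0.19 for Saa3 between diets in c-MET/β-catenin livers (16 of 21), from 0.00649 to 0.54 for Orm1 on CD (13 of 21), from 2.1e-06 to 0.169 for Orm3 on CD (19 of 21), from 0.00204 to 0.233 for Hpx on CD (14 of 21) and from 0.00281 to 0.41 for Hp on CD (7 of 21). Between diets in Vec livers it ranged from 1.04e-06 to 0.179 for Orm2 (11 of 21) and from 3.58e-09 to 0.0881 for Orm3 (16 of 21), and in c-MET/β-catenin livers from 0.0134 to 0.855 for Orm3 (11 of 20). With the term for runs, only Orm3 between diets in Vec livers stayed called, a gene that entered the test only through CD Vec, where it was high.

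The replicate block gave 4, 0, 1, 3 and 0 called members in the 5 comparisons in the order above, against 5, 1, 2, 4 and 0. Deviations of samples with the same number correlated between -0.18 and 0.17, above 0.1 in 2 of 18 pairs, and 3 of 12 libraries correlated best with their own number, so the numbers were not taken as pairs.

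Directions that reversed belonged to members that were not called. Over the fits without 1 library, Saa1 ran on CD from -1.18 to 0.038 and Saa3 from -0.007 to 0.59. On LPD, Hpx ran from -0.23 to 0. Between diets in Vec livers, Saa3 ran from -0.39 to 0.21 and Hp from -0.42 to 0.19, and in c-MET/β-catenin livers Orm1 ran from -0.45 to 0.26 and Saa2 from -0.36 to 0.44. Crp on CD was at 0.067 with the term for runs and 0.11 within the middle run, where Saa3 (0.032) and Hp (0.39) between diets in Vec livers also reversed. The family sum in place of Orm3 on LPD was at 0.52. Scaling by total counts only moved the median of all genes to 0.28 on CD, 0.12 on LPD and -0.16 for the interaction, and it reversed no member. Genes called over the whole table numbered 4933 on CD, against 3014 in a fit to the groups compared, 945 with the term for runs and 1745 within the middle run. On LPD there were 184, against 481 with DESeq2, 505 in a fit to the groups compared, 75 with the term for runs and 52 to 254 without 1 library. Between diets in Vec livers there were 43, against 66 with total counts only, 340 with DESeq2, 3 in a fit to the groups compared, 16 with the block, 16 with the term for runs, 136 within the middle run and 5 to 104 without 1 library. In c-MET/β-catenin livers there were 2784, against 618 with the term for runs, 1720 within the middle run and 1585 to 3660 without 1 library. For the interaction there were 1243, against 2032 with DESeq2, 812 with the block, 85 with the term for runs, 390 within the middle run and 391 to 1404 without 1 library.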

Other observations

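Proteins downstream of Hp and Hpx were described from a list of 9 genes for the clearance of haemoglobin, heme and iron. On CD, 3 were higher and 1 lower with the oncogenes, beside 18.7% and 16.7% of all genes. Hmox1, which encodes heme oxygenase 1, was at 1.83 on the log2 scale (SE 0.51, adjusted p = 0.0165), Slc48a1, a heme transporter, 1.68 (SE 0.26, adjusted p = 0.000461) and Blvrb, a biliverdin reductase, 0.97 (SE 0.23, adjusted p = 0.00639). Hmox1, when replicate 1 of CD c-MET/β-catenin was left out, was at 0.96 and not called (adjusted p = 0.0755). Slc40a1, the iron exporter ferroportin, was lower (-0.73, SE 0.18, adjusted p = 0.00690) and in c-MET/β-catenin livers was higher on LPD (1.16, SE 0.18, adjusted p = 0.00144). Slc48a1 was also the only 1 of the 9 called with the oncogenes on LPD (1.21, SE 0.25, adjusted p = 0.0396), against 1.32% of all genes. That call held in 4 of 12 fits without 1 library. Of 6 genes for receptors of serum amyloid A and lipocalin 2, Scarb1 was higher on CD (0.83, SE 0.16, adjusted p = 0.00171), and in c-MET/β-catenin livers Scarb1 and Tlr2 were lower on LPD (-0.69, adjusted p = 0.00978, and -0.97, adjusted p = 0.0437).

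Of the remaining cell type lists, on CD 3 of 8 stellate cell markers were higher (Col1a1, Acta2, Col3a1) and 2 lower (Lrat, Dcn), 2 of 6 sinusoidal endothelium markers were lower (Clec4g, Oit3), Cd8a was higher and Cd4 lower among 7 T and B cell markers, Fabp4 was higher among 3 adipocyte markers tested, and 5 of 10 hepatocyte markers were lower. Of all genes tested on CD, 35.4% were called, 18.7% higher and 16.7% lower, so several of these lists are near the share called in either direction. On LPD none of these was called with the oncogenes, and none was called between diets in Vec livers. In c-MET/β-catenin livers the stellate, endothelial and hepatocyte markers Lrat, Dcn, Clec4g, Oit3, Apob and Serpina1c were higher on LPD, and Acta2, Col1a1, Col3a1, Fabp4 and Tat were lower. With replicate 1 of CD c-MET/β-catenin left out, Cd4 on CD and Acta2, Col3a1, Apob and Tat between these diets were not called.

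The genes whose log2 CPM over the 12 libraries, group differences included, was most like that of a member were taken among 9408 genes. For Lcn2 they were Prtn3 (Pearson r = 0.975), Chpf2 (0.958), Tmem71 (0.957), Itih5 (0.953) and Scarb1 (0.952). For Hp they included Ddx39a (0.963), Raver1 (0.959), Prmt6 (0.955) and Traf7 (0.955). For Saa1 they were Zfp27 (0.892), Nsun5 (0.890), Abhd13 (0.878), Lyn (0.871) and Mapk1ip1 (0.859). These points share library, depth and scaling.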
